A study of Mus musculus with 36 samples.

Results

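Chemokines and their receptors were followed along the mouse intestine. The group held every gene on 3 expression array sets whose annotated symbol begins with Ccl, Cxcl, Xcl or Cx3cl for a ligand, or with Ccr, Cxcr, Xcr or Cx3cr for a receptor, apart from the CCR4-NOT genes, which share letters but not function. This gave 45 of the 15964 genes measured, of which 29 were ligands and 16 were receptors. Each gene was read from 1 probe set, from array set A where it had one there (39 genes), otherwise from B (4 genes) or C (2 genes), and the brightest within that set. Some members, such as Ccl6 and Cxcl12, have a brighter probe set on another array set, described with them below.

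The RNA came from male Hsd:ICR(CD-1) mice, an outbred stock, 8 weeks old and kept on standard chow. Each sample was a pool of 10 mice, 3 pools to a segment, and total RNA of whole segments was hybridised. The labels leave unsaid if equal pool numbers in 2 segments mean the same mice, and the segments were compared without pairing. The duodenum was the first piece behind the stomach, the jejunum was a middle stretch, the ileum lay just before the caecal junction, and the colon was taken as 1 undivided piece. With 3 pools for each of the 4 segments there were 12 samples, and each was hybridised to all 3 array sets. No genotype, agent or time point was compared, so the segment was the only factor. The 3 values of a segment are pools, and p-values measure the spread between pools, not between mice. Epithelium, immune cells, muscle, vessels and, in duodenum, pancreas all contributed RNA. Fewer cells of a type and less RNA per cell therefore cannot be told apart.

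Chemokines are small secreted or membrane-bound proteins that draw leukocytes along a gradient. They act through receptors that couple to inhibitory G proteins, and through these to phosphoinositide 3-kinase, Rac and integrins. In the intestine some chemokines are made by the epithelium without infection and bring lymphocytes to the mucosa, others are made by stromal cells and build Peyer's patches and lymphoid follicles, and a large inducible group is switched on by inflammation and microbial signals.

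Depth on these arrays is given by the array median, which lay between 48.7 and 75.2 intensity units on set A, between 85.7 and 110.2 on B and between 85.5 and 104.5 on C. Over all probe sets, pools of 1 segment correlated at 0.932 to 0.970 on set A, at 0.859 to 0.915 on set B and at 0.817 to 0.904 on set C. Single members on set A could still scatter more than some on B or C. The labels of the segments fitted their markers in part: 5 of 5 duodenal markers were lower in jejunum than in duodenum, 5 of 5 ileal markers were higher in ileum than in jejunum, 3 of 5 colonic markers were higher in colon than in ileum, and 1 of 5 jejunal markers was higher in jejunum than in duodenum. All 8 measured markers of exocrine pancreas were lower in jejunum than in duodenum, with summed levels of 99980 to 100700 units in duodenum and at most 2926 in any other sample. The part of this pancreatic RNA in the differences between duodenum and other segments below was not tested. Samples jejunum 2 and 3 and ileum 1 and 3 had low signals of the 18S ribosomal control, 80.1 to 684.5 units on set A against 2712 to 10420 in the other 8 samples. The ratio of 3' to 5' actin signal on set A was 1.14 to 1.20 in ileum and 1.41 to 1.84 in duodenum.

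Promoters of 5 of the called members are shown first, because the results below turn on these genes. Each window runs from 250 bases before to 50 bases after an annotated RefSeq transcript start in GRCm38.p6, and such a window was found for 34 of the 45 members. Capitals mark matches to TATAAA, a core of the TATA box, to TTTATG, a core bound by the intestinal CDX factors, and to a core of kappaB sites (GGG, any 2 bases, then TTTCC), all searched on both strands. Ccl25 has 2 annotated starts, and the window at the second, chr8:4349338-4349637 on the plus strand, is shown, since the window at the first holds no match to these letters. The Cx3cl1 window is chr8:94771930-94772229 on the plus strand, the Cxcl13 window is chr5:95956689-95956988 on the plus strand, the Ccl9 window is chr11:83578587-83578886 on the minus strand, and the Ccl28 window is chr13:119623569-119623868 on the plus strand. The Ccl28 window holds no match, and neither does that of the dim member Cxcl10, which is not shown.
Ccl25: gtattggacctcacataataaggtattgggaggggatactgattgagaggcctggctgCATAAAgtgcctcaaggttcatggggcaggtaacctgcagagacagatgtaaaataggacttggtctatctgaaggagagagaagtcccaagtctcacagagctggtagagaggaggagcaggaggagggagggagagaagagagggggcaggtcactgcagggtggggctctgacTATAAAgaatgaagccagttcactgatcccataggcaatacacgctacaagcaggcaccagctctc
Cx3cl1: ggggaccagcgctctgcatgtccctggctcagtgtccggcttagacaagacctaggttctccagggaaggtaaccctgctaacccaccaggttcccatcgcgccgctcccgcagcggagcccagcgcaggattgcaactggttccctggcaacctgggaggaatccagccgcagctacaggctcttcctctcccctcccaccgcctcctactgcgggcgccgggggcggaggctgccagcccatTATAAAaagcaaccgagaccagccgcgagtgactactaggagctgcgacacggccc
Cxcl13: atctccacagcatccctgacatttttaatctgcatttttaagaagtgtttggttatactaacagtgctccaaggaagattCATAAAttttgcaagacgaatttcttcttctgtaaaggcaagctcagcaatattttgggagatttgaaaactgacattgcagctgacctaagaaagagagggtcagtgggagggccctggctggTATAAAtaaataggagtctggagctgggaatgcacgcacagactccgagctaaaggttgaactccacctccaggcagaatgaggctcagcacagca
Ccl9: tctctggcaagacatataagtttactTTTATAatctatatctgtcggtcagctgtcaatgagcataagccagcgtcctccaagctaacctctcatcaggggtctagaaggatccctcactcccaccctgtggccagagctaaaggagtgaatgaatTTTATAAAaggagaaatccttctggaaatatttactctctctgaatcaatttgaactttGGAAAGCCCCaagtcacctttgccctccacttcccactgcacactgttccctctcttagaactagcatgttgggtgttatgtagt
Ccl28: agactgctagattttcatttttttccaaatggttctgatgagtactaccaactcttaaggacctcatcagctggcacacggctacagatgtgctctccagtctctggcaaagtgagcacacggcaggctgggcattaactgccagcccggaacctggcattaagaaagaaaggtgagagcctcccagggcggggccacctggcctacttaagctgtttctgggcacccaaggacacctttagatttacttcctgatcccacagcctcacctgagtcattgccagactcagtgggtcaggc

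The TATAAA letters were found in the promoters of 11 of the 34 members, 32.4%, while 15.7% of 27025 genes in the RefSeq table held them in at least 1 window. TTTATG stood in 8 of the 34, 23.5%, against 13.6% of all genes, and the kappaB letters in 4 of the 34, 11.8%, against 1.89%. GATAAG, the core bound by GATA factors, was present in 3 of the 34, 8.82%, against 8.58%. The 4 members with the kappaB letters were Ccl9, Ccr3, Cxcl1 and Cxcl2. In the Ccl25 window the match to TTTATG, read on the opposite strand as CATAAA, began 192 bases before the start, and the Cxcl13 window held the same letters 170 bases before its start. These matches describe letters in a window and say nothing of binding.

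Several members lie side by side on the chromosome, with at most 2 other protein-coding genes between them. In the RefSeq order Ccl9, Ccl6, Ccl3 and Ccl4 form 1 such run on chromosome 11, Ccl22, Cx3cl1 and Ccl17 form another on chromosome 8, and the receptor genes Ccr9, Xcr1, Ccr1, Ccr1l1, Ccr3 and Ccr2 stand together on chromosome 9. Neighbours were not always called together: in the chromosome 8 run Cx3cl1 was lower in colon, whereas Ccl22 measured 145.9 ± 25.2 in jejunum and 135.5 ± 17.3 in colon (SD, n = 3) and was not called.

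Most members were dim. In 27 of the 45 the mean stayed below the median of the arrays in every segment, and their single values ran from 1.5 to 104.1 units. This dim group held 16 ligands (Ccl1, Ccl2, Ccl3, Ccl4, Ccl7, Ccl11, Ccl12, Ccl17, Cxcl1, Cxcl2, Cxcl5, Cxcl9, Cxcl10, Cxcl14, Cxcl15 and Xcl1) and 11 receptors (Ccr1, Ccr1l1, Ccr2, Ccr3, Ccr4, Ccr7, Ccr8, Ccr9, Ccrl2, Cxcr2 and Cxcr4). Of the other 18 members, 9 were above the median in all 4 segments and 9 in some of them, and 13 were ligands and 5 receptors. The same counts were not made over all genes, so dimness is not shown to be particular to this family.

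A member was called where limma's test on log2(intensity + 16) gave a Benjamini-Hochberg adjusted p below 0.05 over all 36701 probe sets. Differences on this scale understate the change of dim genes. Some difference among the 4 segments was called for 8 members, Ccl25, Cx3cl1, Ccl24, Ccl28, Ccl9, Cxcl13, Cxcr5 and Cxcl10. That is 17.8% of the members, where 13.7% of all genes were called, so the family as a whole was not far from the background. The ileum had the highest mean for 18 members, the duodenum for 11, the colon for 9 and the jejunum for 7, where over all genes the shares were 23.2%, 22.1%, 33% and 21.8%. Only 6 of the 18 and 2 of the 11 were above the array median in any segment, so most of this ranking rests on dim members.

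**Figure D1:**
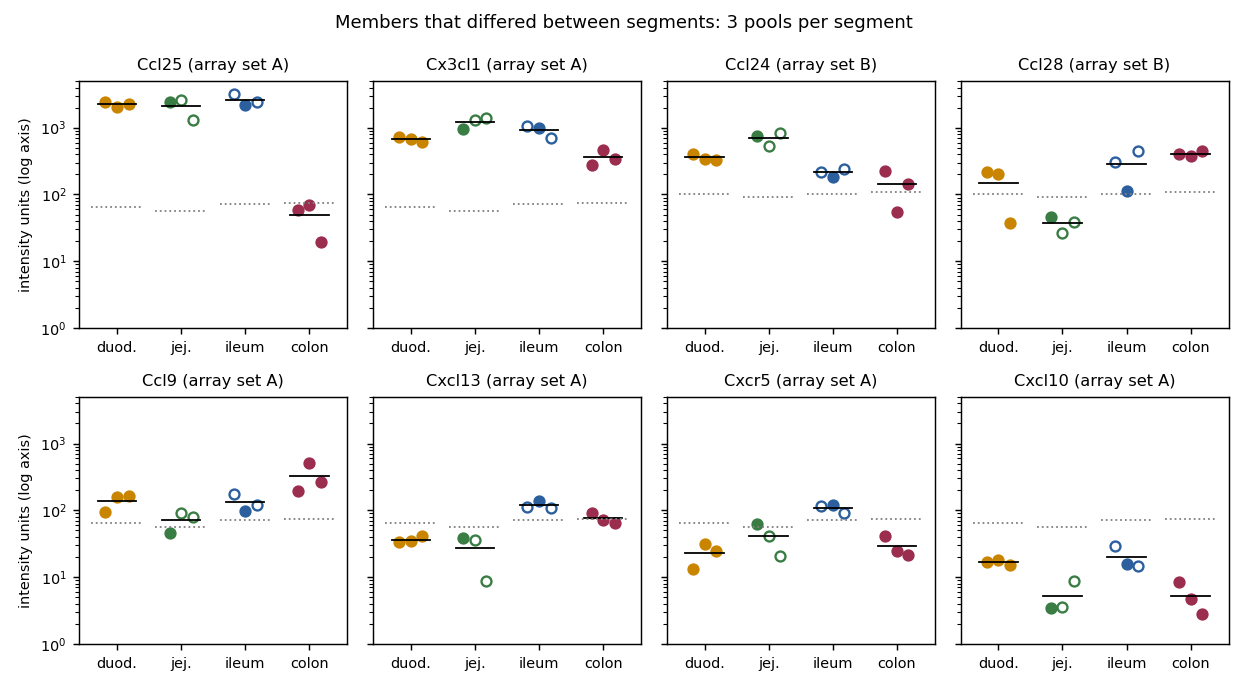
Intensity of the 8 members called among the segments, on a log axis. Each point is 1 pool of 10 mice, black bars are means of 3 pools, dotted lines are the mean array median of the segment, and open points are the 4 samples with a low 18S control signal. Ccl25 lies between 1301 and 3160 units in the small intestine and between 19.4 and 69.0 in colon.

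The member with the largest difference was Ccl25, the chemokine of small-intestinal and thymic epithelium that attracts lymphocytes carrying Ccr9. It measured 2462, 2070.0 and 2258 units in the duodenum pools, 2431, 2574 and 1301 in jejunum, 3160, 2160.4 and 2463 in ileum, and 59.2, 69.0 and 19.4 in colon. The 9 small-intestinal values overlapped among themselves and none came near the colon, where the mean was below the array median. Colon minus the small-intestinal mean was -5.23 on the log2 scale (SE 0.248, limma adjusted p = 1.37e-09), and colon minus ileum was -5.40 (SE 0.303, limma adjusted p = 2.45e-08). Neither difference between neighbouring small-intestinal segments passed the test, with jejunum minus duodenum at -0.165 (SE 0.303) and ileum minus jejunum at 0.346 (SE 0.303). The summed level of 10 epithelial markers was 55540 to 67180 in colon and 51040 to 74460 in the small-intestinal samples, so these ranges overlapped.

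Ccr9, the receptor of Ccl25 on gut-homing lymphocytes, was dim. Its probe set on array set A ran from 5.1 to 53.6 units with means of 19.3 in duodenum, 14.6 in jejunum, 37.9 in ileum and 16.8 in colon, and colon minus the small-intestinal mean was -0.242 (limma adjusted p = 0.762). A second Ccr9 probe set on array set B had means of 65.4, 60.4, 53.0 and 18.8, and its colon difference of -1.16 (SE 0.366, limma adjusted p = 0.0698) also missed the threshold. The gene was therefore not called from either probe set, although both had a colon value below the small-intestinal mean.

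Cx3cl1, fractalkine, a membrane-anchored chemokine on a mucin stalk, was also lower in colon. It measured 733.2, 687.6 and 616.0 units in duodenum, 954.4, 1306 and 1415 in jejunum, 1057, 979.4 and 709.7 in ileum, and 276.4, 467.3 and 334.3 in colon. Every colon pool was below every small-intestinal pool, and every jejunum pool was above every duodenum pool. Colon minus the small-intestinal mean was -1.33 (SE 0.173, limma adjusted p = 0.000111), and colon minus ileum was -1.32 (SE 0.212, limma adjusted p = 0.00151). Jejunum minus duodenum, 0.820 (SE 0.212), had an adjusted p of 0.0972 in limma and, of the alternatives run, passed only without sample jejunum 1 (0.988, adjusted p = 0.0302), so those neighbours did not differ beyond the threshold with all pools.

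The probe sets of Cx3cl1 did not all show this. The one on array set B had means of 253.1, 301.7, 218.3 and 152.7 units and was lower in colon by the same comparison (-0.684, SE 0.197, limma adjusted p = 0.0447). The second one on array set A had means of 154.3, 166.7, 126.5 and 136.9 units, with colon minus ileum at 0.196 and colon minus the small-intestinal mean at -0.072 (limma adjusted p = 0.948).

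Cx3cr1, the fractalkine receptor of mononuclear phagocytes, was above the array median in all 4 segments. Its means were 85.2 ± 43.5 in duodenum, 89.2 ± 65.5 in jejunum, 108.8 ± 41.8 in ileum and 143.2 ± 45.2 in colon (SD, n = 3), highest in colon, where the ligand was lowest. Colon minus the small-intestinal mean was 0.622 (SE 0.380, limma adjusted p = 0.451), and a second probe set on array set C put the highest mean, 302.4 units, in ileum. The segments were thus not separated for the receptor.

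**Figure D2:**
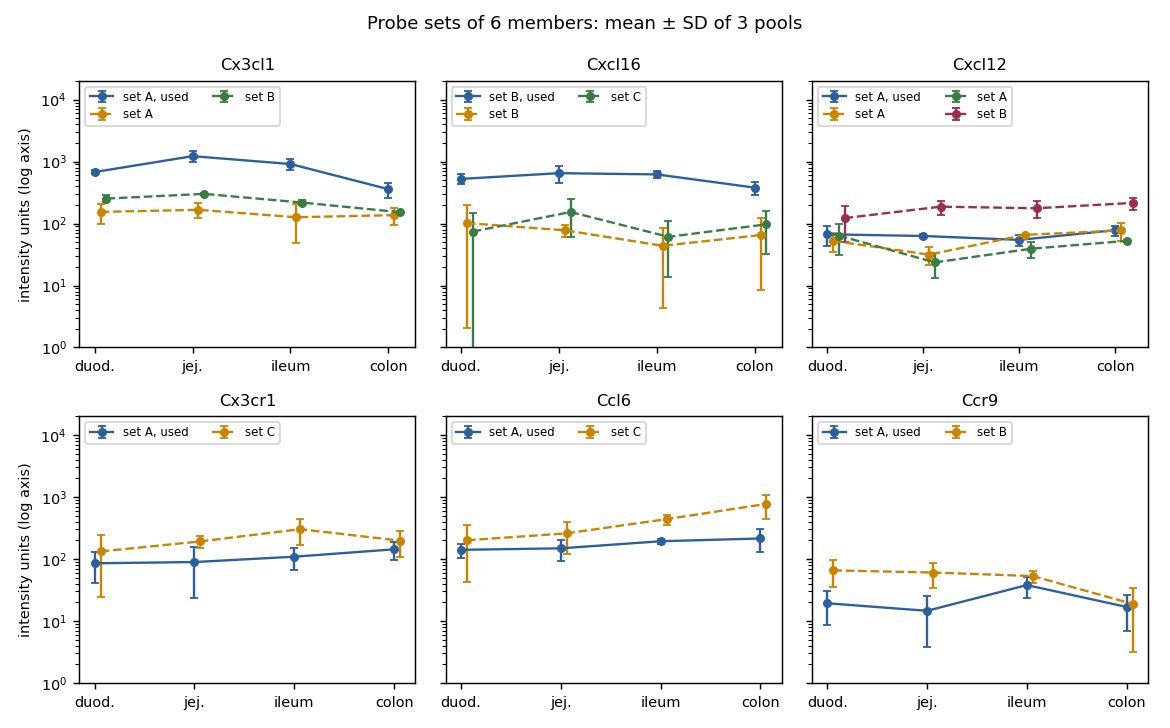
Mean intensity of each probe set of 6 members by segment on a log axis, with bars of 1 SD over 3 pools. The solid line is the probe set used, dashed lines are the others, and 1 lower bar of Cxcl16 runs past the axis. For Cx3cl1 the used probe set falls from 1225 in jejunum to 359.3 in colon while the second one on set A stays between 126.5 and 166.7.

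Ccl24, eotaxin-2, an attractant of eosinophils through Ccr3, was highest in jejunum. Its values were 408.8, 334.9 and 330.1 units in duodenum, 758.2, 525.6 and 831.6 in jejunum, 216.2, 184.0 and 242.6 in ileum, and 228.4, 54.1 and 145.3 in colon. The jejunum pools were above all other pools, duodenum was above ileum, and ileum and colon overlapped. It fell from jejunum to ileum by 1.63 on the log2 scale (SE 0.364, limma adjusted p = 0.0246), and colon minus the small-intestinal mean was -1.48 (SE 0.297, limma adjusted p = 0.00411). The jejunum and duodenum did not differ beyond the threshold (0.928, SE 0.364, limma adjusted p = 0.326), nor did ileum and colon (-0.707, SE 0.364, limma adjusted p = 0.474).

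The jejunum to ileum call of Ccl24 was lost when jejunum 1, jejunum 3 or any of the 3 ileum samples was left out, with differences of -1.50 to -1.72 and limma adjusted p-values of 0.0549 to 0.114. It was also lost without the intensity trend (limma adjusted p = 0.0597) and over the 8 samples with a high 18S signal (-1.95, limma adjusted p = 0.437). The colon difference kept its call in all 21 alternatives, but its size rested in part on colon 2, without which it was -0.983 (limma adjusted p = 0.035). Ccr3, the eosinophil receptor for Ccl24, had values of 2.8 to 38.1 units and was not called. The summed level of 12 eosinophil and mast cell markers was 478.3 to 662.2 in colon and 337.9 to 620.5 in the small intestine, and its part in the Ccl24 difference was not tested.

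Ccl28, a mucosal chemokine of colon, salivary and mammary epithelium that attracts IgA-secreting cells, had the reverse order of segment means. It measured 216.0, 200.2 and 36.8 units in duodenum, 46.3, 26.8 and 39.3 in jejunum, 305.3, 113.9 and 448.1 in ileum, and 409.4, 373.7 and 441.5 in colon. The colon pools were close together and the jejunum pools uniformly low, whereas duodenum and ileum were spread widely and overlapped with each other. Colon minus the small-intestinal mean was 1.76 (SE 0.434, limma adjusted p = 0.0179) and ileum minus jejunum was 2.35 (SE 0.531, limma adjusted p = 0.0261). Colon and ileum did not differ beyond the threshold (0.656, SE 0.531, limma adjusted p = 0.736).

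The colon call was lost without colon 1 (1.75, limma adjusted p = 0.0811), colon 2 (1.82, limma adjusted p = 0.0663) or colon 3 (1.70, limma adjusted p = 0.0968), where the difference itself hardly moved. The ileum to jejunum call was lost without jejunum 2, jejunum 3, ileum 1 or ileum 3, with values of 1.95 to 2.38 and limma adjusted p-values of 0.0785 to 0.148, and over the 8 high-18S samples it was 1.06 (limma adjusted p = 0.835). It also missed the threshold with arrays centred on their median (limma adjusted p = 0.0537), without the intensity trend (0.055) and with only the arrays compared (0.0577). Markers of B and plasma cells, among the cells that Ccl28 attracts, summed to 2717 to 3558 units in duodenum, 1173 to 2085 in jejunum, 2903 to 3290 in ileum and 1608 to 2164 in colon, and their part was not tested.

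Ccl9, a CC chemokine that acts on myeloid cells through Ccr1, was higher in colon. It measured 95.0, 158.7 and 163.1 units in duodenum, 46.3, 91.0 and 80.2 in jejunum, 178.2, 98.5 and 118.4 in ileum, and 195.6, 508.9 and 266.3 in colon. The 3 colon pools were above all 9 small-intestinal pools, though colon 2 stood well above the other colon pools. Colon minus the small-intestinal mean was 1.35 (SE 0.282, limma adjusted p = 0.00619), and without colon 2 it was 0.985 and no longer called (limma adjusted p = 0.0779). Colon minus ileum alone was 1.13 (SE 0.345, limma adjusted p = 0.113). Ccr1 ran from 9.2 to 39.0 units and was not called. A brighter Ccr1 probe set on array set B ran from 13.2 to 123 units and was not called either.

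Markers of muscle were also higher in colon. All 10 smooth muscle markers were higher in colon than in the small-intestinal mean, with sums of 29440 to 33490 units against 6530 to 13930 in the small intestine. Of 8 fibroblast markers 3 were higher. Over all genes 6.92% were higher and 4.96% lower in this comparison. Of 12 macrophage and dendritic cell markers 3 were lower in colon (Lyz2, Itgax and Csf1r) and 1 was higher (Cd14), with sums of 2366 to 3905 in colon and 2884 to 5362 in the small intestine. Their part in the Ccl9 and Ccl28 differences was not tested.

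Ccl6, the gene next to Ccl9 and another myeloid chemokine, had means of 140.5 ± 36.7 in duodenum, 148.5 ± 57.4 in jejunum, 193.2 ± 15.8 in ileum and 214.2 ± 86.5 in colon (SD, n = 3). Its colon difference was 0.348 (SE 0.269, limma adjusted p = 0.585). A second Ccl6 probe set on array set C had means of 200.4, 259.3, 440.1 and 773.4 units and a difference of 1.49 (SE 0.484, limma adjusted p = 0.0888). Both probe sets put duodenum lowest and colon highest, but neither passed. Probe sets of close relatives such as Ccl6 and Ccl9 could bind each other's transcripts, which was not tested.

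Cxcl13 and its receptor Cxcr5 were both highest in ileum. Cxcl13 is made by follicular stromal cells and draws B cells into Peyer's patches and isolated follicles, and Cxcr5 is the receptor by which B cells and follicular helper T cells follow it. Cxcl13 measured 33.0, 34.3 and 41.4 units in duodenum, 38.0, 35.4 and 8.7 in jejunum, 113.8, 137.2 and 106.8 in ileum, and 92.1, 70.6 and 65.2 in colon. The ileum pools were above all others and the colon pools came next, above every duodenum and jejunum pool. Ileum minus jejunum was 1.72 (SE 0.333, limma adjusted p = 0.0118), ileum minus duodenum was 1.37 (SE 0.333, limma adjusted p = 0.0512), and colon minus ileum was -0.561 (SE 0.333, limma adjusted p = 0.573).

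Cxcr5 measured 13.3, 31.3 and 24.5 units in duodenum, 63.4, 41.4 and 20.5 in jejunum, 115.6, 120.1 and 89.8 in ileum, and 41.4, 24.7 and 21.4 in colon. Again no other pool reached the ileum range, and here colon overlapped with duodenum and jejunum. Ileum minus duodenum was 1.69 (SE 0.350, limma adjusted p = 0.0183) and colon minus ileum was -1.48 (SE 0.350, limma adjusted p = 0.0285), while ileum minus jejunum was 1.17 (SE 0.350, limma adjusted p = 0.0999). Ligand and receptor were thus called in different comparisons, and whether their patterns differ was not tested.

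Cxcl13 kept its ileum to jejunum call whichever sample was left out, with differences of 1.35 to 1.92 and limma adjusted p-values of 0.00797 to 0.0488, but not over the 8 high-18S samples (1.50, limma adjusted p = 0.396) nor with only the jejunum and ileum arrays in the fit (1.72, limma adjusted p = 0.0845). The ileum to duodenum call of Cxcr5 was lost without duodenum 1 (1.50), duodenum 3 (1.73), ileum 1 (1.65) or ileum 2 (1.62), with limma adjusted p-values of 0.0563 to 0.0806. Its colon to ileum call was lost without any 1 of the 3 ileum samples, colon 2 or colon 3, with differences of -1.36 to -1.59 and limma adjusted p-values of 0.0556 to 0.136. Over the 8 high-18S samples neither Cxcr5 call held (1.83, limma adjusted p = 0.127, and -1.62, limma adjusted p = 0.113), and with an offset of 1 the colon to ileum difference was -1.91 (limma adjusted p = 0.054). The differences kept their direction each time.

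Other genes of follicles and of lymphocyte entry were read beside them. Madcam1, the address protein of mucosal venules for lymphocytes, measured 74.4, 69.9 and 18.4 units in duodenum, 114.7, 65.3 and 85.9 in jejunum, 283.8, 214.5 and 172.4 in ileum, and 51.7, 31.2 and 14.4 in colon. It rose from duodenum to ileum by 1.87 on the log2 scale (SE 0.405, limma adjusted p = 0.0247) and was lower in colon than in ileum (-2.36, SE 0.405, limma adjusted p = 0.00270). Of 15 measured lymphotoxin and NF-kB genes 2 were higher in ileum than in duodenum, where 1.43% of all genes were, and the list's median difference was -0.014. These were Ltb and Relb. Ltb, a lymphotoxin subunit needed for lymphoid tissue, was higher in ileum than in duodenum (1.40, SE 0.299, limma adjusted p = 0.0227), as was Relb, a transcription factor of the lymphotoxin pathway (1.00, SE 0.214, limma adjusted p = 0.0218). Ltbr, the lymphotoxin receptor, went the other way from jejunum to ileum (-1.01, limma adjusted p = 0.0252).

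Cd79b, a chain of the B cell receptor, was higher in ileum than in jejunum (1.40, SE 0.234, limma adjusted p = 0.00423) and lower in colon than in ileum (-1.25, SE 0.234, limma adjusted p = 0.00570). Of the 11 measured B and plasma cell markers 2 were higher in ileum than in jejunum, Cd79b and Jchain, where 2.46% of all genes were, and 2 were higher in ileum than in duodenum, Cd79b and Cd22. Of 7 measured markers of follicle-associated epithelium 2 were higher in ileum than in jejunum, Pglyrp1 and Anxa5. Between ileum and duodenum 2 were higher in ileum and 1, Gp2, was lower, with a median difference of 0.458 over the list. The sum of these 7 was 3765 to 6915 units in duodenum and 2250.0 to 2527 in ileum. The duodenum pools also held the RNA of exocrine pancreas described above, and its part in Gp2 and in this sum was not tested. The part of these cells in the Cxcl13 and Cxcr5 differences was not tested.

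**Figure D3:**
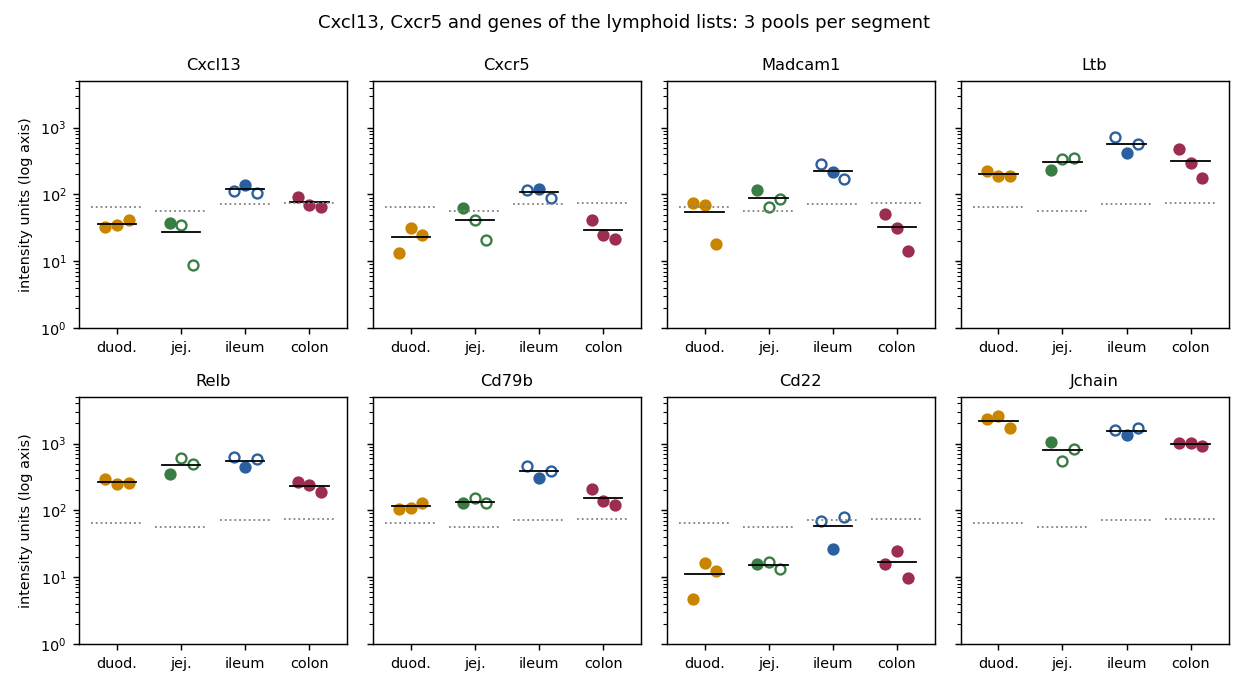
Intensity of Cxcl13, Cxcr5, Madcam1, Ltb, Relb, Cd79b, Cd22 and Jchain in each pool on a log axis, with black bars for means of 3 pools, dotted lines for the mean array median and open points for samples with a low 18S signal. The ileum pools of Cxcl13, Cxcr5, Madcam1 and Cd79b are above all other pools, while Jchain has its highest mean, 2216 units, in duodenum.

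Cxcl10, an interferon-induced ligand of Cxcr3, was called only in the test for any difference among segments (limma adjusted p = 0.0488). It measured 16.6, 18.2 and 15.0 units in duodenum, 3.5, 3.6 and 8.6 in jejunum, 29.3, 15.5 and 14.8 in ileum, and 8.4, 4.7 and 2.8 in colon. All values were far below the array median, and the call was lost in 17 of 20 alternatives, 11 of them leaving out 1 sample, with limma adjusted p-values of 0.0429 to 0.176 over all 20.

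Its relatives Cxcl9 and Cxcl11 bind the same receptor. Cxcl9 ran from 2.1 to 23.4 units and, of the alternatives run, was called only without ileum 2. Cxcl11, read on array set C, had means of 122.2 ± 23.5 in duodenum, 165.8 ± 41.1 in jejunum, 227.4 ± 119.0 in ileum and 112.4 ± 11.6 in colon (SD, n = 3), with single ileum values of 308.6, 90.5 and 283.2. Cxcr3, the receptor on effector T cells, measured 94.4 ± 50.6 in duodenum, 50.4 ± 32.2 in jejunum, 61.8 ± 17.8 in ileum and 31.4 ± 9.96 in colon (SD, n = 3). Neither passed any test.

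Among the other inducible chemokines, Ccl8, a monocyte attractant, came closest to a call. It measured 14.5, 15.0 and 42.9 units in duodenum, 35.6, 9.4 and 10.0 in jejunum, 59.6, 90.2 and 81.2 in ileum, and 7.8, 18.4 and 39.7 in colon. The ileum pools did not overlap with the rest, and ileum minus jejunum was 1.51 (SE 0.399, limma adjusted p = 0.0603). With samples blocked by their 18S signal, low or high, the limma adjusted p was 0.0395 (1.51), with an offset of 64 it was 0.0358 (0.785), and without jejunum 1 it was 0.0244 (1.84). Ccl2, Ccl7, Ccl11, Ccl12 and Ccl1, which lie in the same run on chromosome 11, ran from 1.9 to 76.8 units and were not called.

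Of the 14 members in the inducible CC group, which takes in Ccl9, Ccl24 and Xcl1, 1 was lower in ileum than in jejunum (Ccl24), and in colon against the small intestine 1 was higher (Ccl9) and 1 lower (Ccl24). Of the 6 inducible CXC members, Cxcl1, Cxcl2, Cxcl5, Cxcl9, Cxcl10 and Cxcl11, none was called in a pairwise comparison. All 6 had a positive ileum minus jejunum difference, with a median of 0.691, where 57.0% of all genes on the 3 array sets were positive. All but Cxcl11 were dim members read on set A. Array medians there were 48.7 to 66.4 in jejunum and 65.5 to 75.2 in ileum, and the part of this was not tested. Cxcl2, a neutrophil attractant, measured 4.0, 57.5 and 13.8 units in ileum and 15.1, 7.3 and 6.4 in colon. Over the 8 high-18S samples its colon minus ileum difference was -1.54, but ileum 2, the bright pool, was the only ileum sample there. The neutrophil marker sums, 341.9 to 938.7 units in ileum and 614.3 to 1254 in colon, overlapped.

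Cxcl16, a transmembrane chemokine of epithelium and phagocytes, had means of 525.8 ± 97.5 in duodenum, 650.9 ± 194.0 in jejunum, 622.2 ± 76.1 in ileum and 380.6 ± 92.9 in colon (SD, n = 3). Colon minus the small-intestinal mean was -0.630 (SE 0.212, limma adjusted p = 0.0932), and without jejunum 1 it was -0.720 (limma adjusted p = 0.0238). Its other probe sets, with means of 43.8 to 153.7 units, showed no called difference.

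Cxcl17, a chemokine of mucosal surfaces, was too variable to separate the segments. It measured 55.1, 344.7 and 65.9 units in duodenum, 370.3, 119.6 and 259.5 in jejunum, 51.8, 138.0 and 140.3 in ileum, and 272.8, 233.4 and 45.2 in colon. Duodenum, jejunum and colon each held high and low pools, and no comparison was called. A brighter Cxcl17 probe set on array set C had means of 346.7 in duodenum, 278.6 in jejunum, 197.5 in ileum and 271.3 in colon. It put duodenum rather than jejunum highest and was not called either. Cxcl14, an epithelial chemokine, ran from 8.8 to 39.5 units, and Cxcl15, known from lung epithelium, from 19.3 to 83.7.

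Ccl22, a dendritic cell chemokine that attracts regulatory T cells through Ccr4, was nearly level, with means of 144.9 ± 36.5 in duodenum, 145.9 ± 25.2 in jejunum, 123.7 ± 23.2 in ileum and 135.5 ± 17.3 in colon (SD, n = 3). Ccr4 ran from 11.1 to 31.0 units. Cxcl12, the stromal ligand of Cxcr4, had means of 67.1 ± 23.2, 63.0 ± 3.67, 54.5 ± 10.7 and 78.4 ± 14.3 in the same order (SD, n = 3), and its colon difference of 0.292 (SE 0.238, limma adjusted p = 0.611) missed the threshold. The 3 other Cxcl12 probe sets had colon differences of 0.341 to 0.514, none of them called. Cxcr4 ran from 6.4 to 69.5 units.

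**Figure D4:**
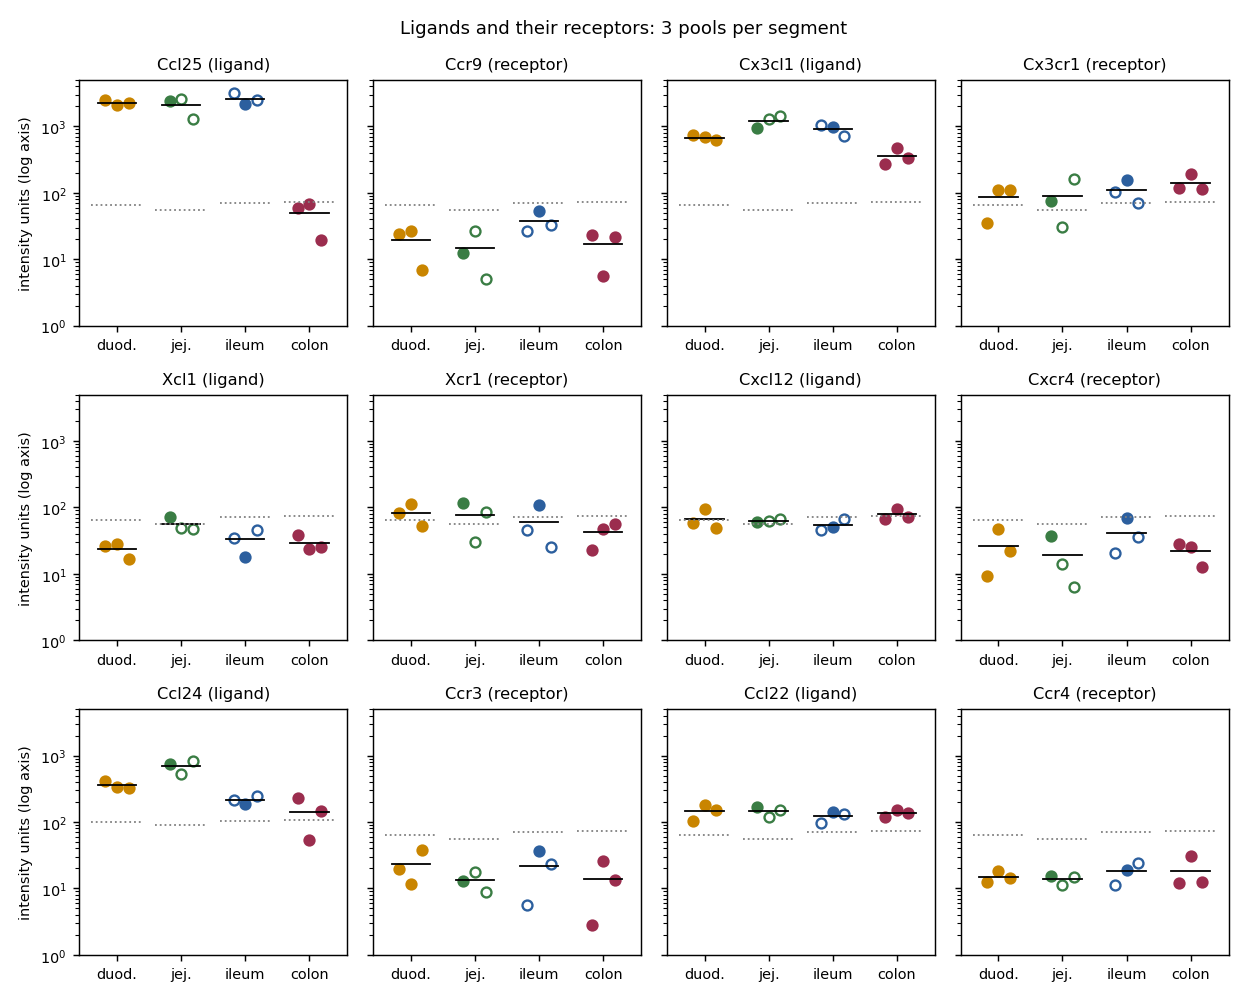
Intensity of 6 ligands and a receptor of each in every pool, on a log axis, with black bars for means of 3 pools, dotted lines for the mean array median and open points for samples with a low 18S signal. The receptors Ccr9, Cxcr4, Ccr3 and Ccr4 stay below the array median on average in every segment, whereas Cx3cr1 exceeds it in 4 segments and Xcr1 in 2. The ligands Ccl25, Cx3cl1, Ccl24, Ccl22 and Cxcl12 exceed it in at least 3 segments, and Xcl1 in none.

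Of the 16 receptors 1, Cxcr5, was called in a pairwise comparison. The 10 CC receptors gave no call in any of the 5 pairwise comparisons, with median differences of -0.194 to 0.200. Ccr6, the receptor for a chemokine of follicle-associated epithelium, measured 138.2, 19.8 and 203.1 units in ileum and means of 30.4, 27.5 and 35.3 in duodenum, jejunum and colon. The ileum held both the highest values and 1 low one, ileum 2, and ileum minus jejunum was 1.44 (SE 0.668, limma adjusted p = 0.354). Ileum 2 was the only ileum sample with a high 18S signal, and the part of that difference in the spread was not tested.

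Xcr1, the receptor of cross-presenting dendritic cells, had means of 81.8 ± 29.2 in duodenum, 77.1 ± 43.9 in jejunum, 60.3 ± 43.5 in ileum and 42.0 ± 17.2 in colon (SD, n = 3) and was not called. Its ligand Xcl1, made by activated T and natural killer cells, ran from 16.9 to 70.6 units. Ccr2, the receptor that inflammatory monocytes need to leave the marrow, was dim, at 2.6 to 29.2 units, and was called higher in colon only without jejunum 1 (0.647, limma adjusted p = 0.0438). Ccr7, which guides dendritic and naive T cells to lymph nodes, ran from 4.2 to 43.9 units.

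By comparison, none of the 45 members was called between jejunum and duodenum, where 1.5% of all genes were called. In that comparison 7 members had an unadjusted limma p below 0.05, 4 of them higher in jejunum, and so did 14.4% of all genes. The same count was 11 between ileum and jejunum, 10 of them higher in ileum, where 18.6% of all genes had such a p. Between ileum and jejunum 3 members were called, where 4.48% of all genes were called. Of these 2 were higher in ileum, as were 2.46% of all genes, and 1 was lower, as were 2.02%. Between ileum and duodenum 1 member was called, higher in ileum, where 2.99% of all genes were called in either direction and 1.43% were higher. Between colon and ileum 3 members were called, all lower, against 5.22% of all genes in either direction and 2.74% lower.

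Between colon and the mean of the small-intestinal segments 5 members were called, 2 higher (Ccl28 and Ccl9) and 3 lower (Ccl25, Cx3cl1 and Ccl24), or 11.1% of members where 11.9% of all genes were called, 6.92% higher and 4.96% lower. The median member difference was -0.142 in this comparison and 0.054 over all genes. Ileum minus jejunum had a median of 0.285 over the members and 0.079 over all genes. It was positive for 32 of the 45, 71.1%, against 57.0% of all genes. Colon minus ileum had medians of -0.240 and 0.033, with 14 members positive, 31.1%, against 53.3% of all genes. These counts include the 27 dim members. The all-gene values take in all 3 array sets, whereas 39 of the members were read on set A. Array medians on set A were 48.7 to 66.4 in jejunum and 65.5 to 75.2 in ileum. The part of this array-wide difference in the members' medians and signs was not tested. The counts of called members were near the background in each comparison.

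**Figure D5:**
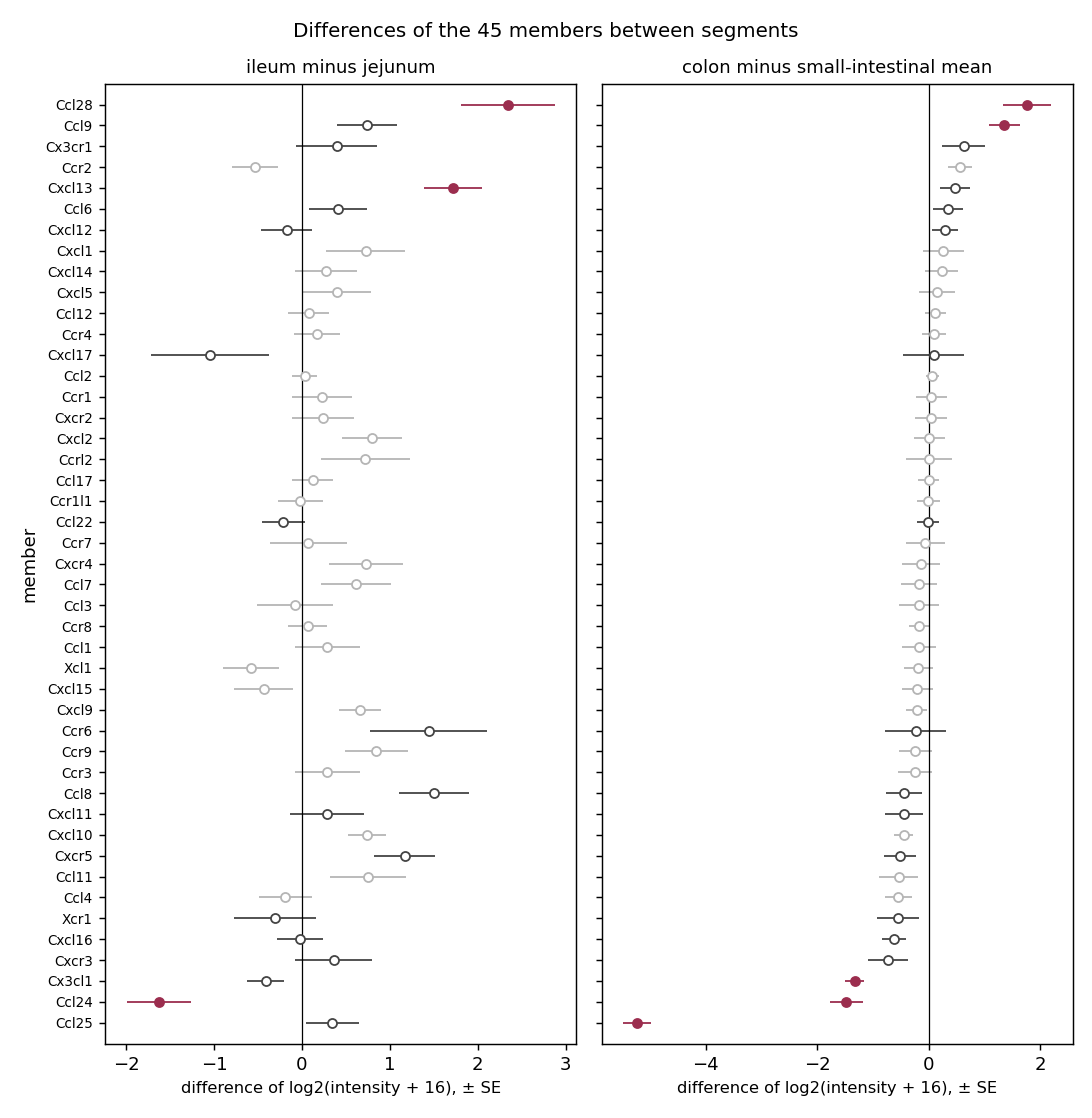
Difference of log2(intensity + 16) with its SE for the 45 members, ileum minus jejunum on the left and colon minus the small-intestinal mean on the right, sorted by the right panel. Filled red points passed the test, dark open points are members above the array median in at least 1 segment and grey ones are dim members. Ccl25 stands at -5.23 in the right panel, and the other 4 called members lie between -1.48 and 1.76.

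Genes through which the receptors signal were read next. Of 42 measured signalling genes none was called between jejunum and duodenum and 2 were higher in ileum than in jejunum, Gnai3, an inhibitory G protein subunit (1.73, limma adjusted p = 0.00457), and Cdc42, a small GTPase of cell polarity (0.967, limma adjusted p = 0.0257). Against the small-intestinal mean 3 were higher in colon, led by Gnai1 (1.99, limma adjusted p = 6.35e-05) and Foxo3 (1.24, limma adjusted p = 0.000856), and 2 were lower, Rac2, the Rac of blood cells (-0.838, limma adjusted p = 0.00649), and Plcb3 (-0.608, limma adjusted p = 0.0255). Over all genes 2.46% were higher in ileum than in jejunum, and 11.9% were called in colon in either direction, the share that 5 of 42 makes. The list's median difference there was -0.058, where all genes had 0.054.

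Of the 4 atypical receptors, which take up chemokines without signalling for migration, 1 was called. Ackr3, which binds Cxcl12, was higher in colon than in the small-intestinal mean (1.08, limma adjusted p = 0.00732), with dim means of 4.20 in duodenum, 2.13 in jejunum, 18.3 in ileum and 31.9 in colon. Of 13 related chemoattractant genes outside the naming rule, Ltb4r1, the leukotriene B4 receptor, fell from duodenum to ileum by 2.38 on the log2 scale (limma adjusted p = 0.000275), with means of 252.6, 143.1, 34.3 and 37.2 units. Against the small-intestinal mean 2 of the 13, Cklf and Rarres2, the precursor of chemerin, were higher in colon (1.41, limma adjusted p = 0.0199, and 0.755, limma adjusted p = 0.0210). In that comparison 1 was lower, and the list's median difference was 0.046. Over all genes 6.92% were higher and 4.96% lower there.

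Of 18 measured genes of gut homing and adhesion, 5 were lower in colon than in the small-intestinal mean and none was higher, where 4.96% of all genes were lower and 6.92% higher. The list's median difference was -0.089. The 5 genes were Aldh1a3, an enzyme of retinoic acid synthesis (-1.48, limma adjusted p = 0.00335), Itgae, the integrin chain that holds lymphocytes in the epithelium (-1.04, limma adjusted p = 0.0141), Icam1 (-1.08, limma adjusted p = 0.0152), Madcam1 (-1.33, limma adjusted p = 0.0198) and Itgb2 (-1.15, limma adjusted p = 0.0318). Retinoic acid is the signal by which lymphocytes acquire Ccr9. Some leukocyte markers were lower there too. Of 10 cytotoxic and intraepithelial markers 2 were lower in colon, Gzma (-2.65, limma adjusted p = 6.72e-06) and Gzmb, and of 11 T cell markers 2 were lower, Cd8a and Cd3e, whereas none of 11 B and plasma cell or 8 neutrophil markers was called and 1 of 12 eosinophil and mast cell markers was higher. The sum of 11 T cell markers was 353.5 to 509.4 units there and 586.3 to 926.2 in the small intestine. Their part in these differences was not tested.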

How the data were processed

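Gene expression was measured on 36 arrays, 12 samples on 3 array sets. The authors deposited linear intensity values. Neither the software nor the scaling steps were given in the sources used here. From the deposited values, log2(intensity + 16) was computed. Array sets were fitted separately in limma 3.58.1 (R 4.3.3), estimating 1 mean for each segment and a variance trend with intensity, and the 2-sided p-values of the 3 sets were adjusted together (Benjamini-Hochberg), with a threshold of 0.05. The 198 controls were left out. Of 36701 probe sets 29131 had a single gene symbol, 724 had several and 6846 had none. A current RefSeq gene was found for 29044. Probe sets with several symbols were not used, among them 4 with a chemokine symbol, and 1 gene whose symbol would match is not reported here. The number of arrays limits the precision.

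Values of every pool were given for called members, segment levels for other members above the array median, and ranges for the rest. In pathway lists the called genes with the smallest adjusted p, up to 3 per comparison, were named, and others named beside them were chosen after their values were seen. Members and lists were chosen with earlier results of these data known. The array named duodenum 3 on set C has jejunum as its source name and was kept by its title. Alternatives were offsets of 1 and 64, median centring, a low-value filter, no trend, other probe sets, 18S class, replicate numbers as a block and leaving out each sample. The pool numbers were checked for pairing: of 18 same-numbered pairs per set, 5, 5 and 4 had a residual correlation above 0.1 on A, B and C (medians -0.0199, 0.0269 and 0.0056), so they were not used as pairs. The procedure was also run on simulated data with independent noise and shifts added in ileum. Those data held no 18S classes and no array-wide shifts, so the run says nothing about either.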

Additional observations from a re-analysis of the deposited data

How the results depend on the processing

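The 20 results on called members were recomputed under 429 combinations of result and alternative. Of these 367 kept the direction and the call, 61 kept the direction and lost the call, and 1 turned, which was colon minus ileum of Cx3cl1 at 0.196 with the second probe set. The tests of Ccl25 kept their calls in every alternative run. Restriction to the 8 high-18S samples, which leaves 1 jejunum and 1 ileum sample whose spread is assumed to be that of the other groups, gave 3 members with any difference and 0 between ileum and jejunum. Between ileum and jejunum, 5 members were called with an offset of 64, 1 without the intensity trend and 1 with only the arrays compared. Between ileum and duodenum, 2 were called with an offset of 64, 2 with the filter, which leaves 18 members, 2 without the trend and 2 with samples blocked by 18S signal, Cxcl13 being the added gene. Between colon and ileum, 5 were called with that block, Ccl8 and Ccl9 being added. Leaving out 1 sample gave 6 to 8 members with any difference, 0 to 1 between jejunum and duodenum, 1 to 4 between ileum and jejunum, 0 to 2 between ileum and duodenum, 2 to 3 between colon and ileum and 3 to 7 between colon and the small-intestinal mean, the lowest without colon 2. With the replicate number as a block the counts were 7, 0, 3, 1, 3 and 5 in the same order, and only the call of Cxcl10 was lost (limma adjusted p = 0.0805). No detection limit was measured, so a dim member without a call is not shown to be level across segments.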
